A study of Mus musculus with 2 samples.

Results

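Wide footprints are stretches of 30 bp or more in which DNase I cut less than in the sequence around them. They were chosen by width alone, as end minus start in the deposited footprint lists of 2 DNase-seq libraries, and made up 38977 of 587201 footprints, against 548224 narrow footprints under 30 bp. Both libraries are labelled as thymus tissue of male B6CASTF1/J mice, the F1 hybrid of C57BL/6J and CAST/EiJ, aged 36 days. No treatment is listed for them. They are labelled biological replicates 1 and 2 of 1 group and are called library 1 and library 2 here. The labels name a separate male for each library but list 1 donor identifier for both. How many donors there were is not settled, and the spread between the libraries may be partly technical. Nothing was compared between conditions: each value is given for wide and then for narrow footprints, in each library on its own. A sign test over 2 libraries cannot go below p = 0.5 (exact, two-sided), so no test over samples was made. Intervals in parentheses are 95% Wilson intervals, which cover counting of footprints only. Footprints of a library are not replicates.

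DNase I cuts accessible DNA, and a protein bound within an accessible site shields the bases under it, which leaves a footprint. Most single transcription factors shield a short stretch. CTCF, a zinc-finger protein that bounds chromatin loops, has a long binding site with a core and, at some sites, a second motif upstream that outer zinc fingers contact. TFIIIC holds the B box inside tRNA genes, and the general transcription machinery assembles beside transcript starts.

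The library labelled replicate 1 stood apart from its label. A narrow promoter footprint was present in 64.4% of 21951 protein-coding genes in library 1 and 62.5% in library 2. Of 19 T cell receptor and coreceptor genes, 6 had one in library 1 and 18 in library 2. Of 18 T lineage transcription factor genes, 16 had one in library 1 and 18 in library 2. Of 16 thymocyte development genes, 8 had one in library 1 and 16 in library 2. The thymocyte genes Cd3d, Cd3e, Cd3g, Cd4, Cd8a, Cd8b1 and Rag1 had 0 promoter footprints in library 1, against 35, 9, 9, 8, 22, 14 and 4 footprints in library 2. Other genes of these lists did have narrow ones in library 1, such as Lck with 6, Cd247 with 4, Hes1 with 37 and Notch1 with 12. Of 18 exocrine pancreas genes, 17 had a narrow one in library 1 and 5 in library 2. The carboxypeptidase gene Cpa1 had 20 promoter footprints in library 1 and 0 in library 2. Of 16 thymic epithelium genes, 11 and 10 had a narrow one. Foxn1 and Psmb11 had 0 in both libraries, whereas Prss16 had 10 and 8 narrow ones and Ccl25 11 and 7. The part of this difference in the results was not tested. Each result is therefore given per library, and some also for footprints held in both.

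The sequences that recur at wide footprints are shown first, each from the GRCm38 (mm10) reference of C57BL/6J with 10 bases on either side of the footprint. The CAST/EiJ alleles were not read here. The first pair are footprints of 30 to 34 bp over a whole CTCF core, which is in capitals. They were wide in both libraries and had the strongest host peaks among such sites upstream of a protein-coding gene. The Kif1b site lay 224 bp and the Socs3 site 38 bp upstream of the transcript start.
Kif1b, chr4:149307892-149307941, minus strand: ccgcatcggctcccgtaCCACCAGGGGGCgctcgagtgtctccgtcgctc
Socs3, chr11:117970059-117970110, plus strand: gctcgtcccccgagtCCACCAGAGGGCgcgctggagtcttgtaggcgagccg

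The second pair are CTCF footprints of 45 to 49 bp that also cover the upstream motif TGCANTNCC. Capitals mark the upstream motif and then the core, with 8 bases between them. The first lay 24944 bp upstream of Ptma, between genes, and the second 483 bp upstream of Ddx54.
Ptma, chr1:86501749-86501814, plus strand: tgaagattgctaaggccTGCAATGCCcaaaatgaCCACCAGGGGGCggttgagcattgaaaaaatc
Ddx54, chr5:120620812-120620876, plus strand: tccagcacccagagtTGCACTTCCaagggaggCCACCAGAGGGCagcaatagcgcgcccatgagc

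The third pair are footprints of 41 to 44 bp in repeat-masked sequence, with the 9 bases AGAGGGCAT in capitals. The Edrf1 sequence had matches at 162 places of the genome and the Lfng sequence at 93 (at least 90% identity over 80% of the footprint).
Edrf1, chr7:133636882-133636944, minus strand: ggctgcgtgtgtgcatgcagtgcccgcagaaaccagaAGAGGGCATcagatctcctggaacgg
Lfng, chr5:140619319-140619379, minus strand: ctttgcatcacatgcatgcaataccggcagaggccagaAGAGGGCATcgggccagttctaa

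The next set holds the strongest shared footprint with a TFIIIC B box, with a CRE (TGACGTCA, bound by CREB and ATF proteins) and with a ZNF143 site, each in capitals. The B box footprint lay wholly inside a tRNA gene at chr10:63429476-63429557. The CRE footprint lay 30 bp upstream of Ube2h and the ZNF143 footprint 97 bp upstream of Nop14. By the same search the B box sequence had matches at 11 places of the genome, the ZNF143 sequence at 3 and the CRE sequence at 1, its own.
B box, chr10:63429467-63429523, minus strand: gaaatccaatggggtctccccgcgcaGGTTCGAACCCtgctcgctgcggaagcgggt
CRE, chr6:30304541-30304597, plus strand: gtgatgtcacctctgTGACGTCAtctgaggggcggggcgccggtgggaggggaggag
ZNF143, chr5:34660220-34660269, plus strand: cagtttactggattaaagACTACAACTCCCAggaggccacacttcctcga

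The last set are wide footprints of library 1 whose midpoint lay in no footprint of library 2. Capitals mark TGGGAA and, 5 or 6 bases on, an E protein site (CAGCTG or CACCTG). They are the 5 with the highest host peak signal among those that held both whole. They lay 14059 bp downstream of the start of 8030423F21Rik, 8360 bp upstream of Bcl3, 12533 bp upstream of Gm42839, 198 bp upstream of Ctrb1, which encodes chymotrypsinogen, and 1132 bp upstream of Clps, which encodes pancreatic colipase. Of all 172 footprints of library 1 only with the pair 5, 6 or 15 bases apart, 2 were nearest to a gene of the exocrine pancreas list. The Ctrb1 sequence had matches at 3 places of the genome and the Bcl3 sequence at 2.
8030423F21Rik, chr5:52604921-52604985, plus strand: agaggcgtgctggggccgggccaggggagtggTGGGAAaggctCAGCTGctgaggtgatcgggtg
Bcl3, chr7:19831105-19831154, plus strand: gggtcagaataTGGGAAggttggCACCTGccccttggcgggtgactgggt
Gm42839, chr5:125074276-125074339, plus strand: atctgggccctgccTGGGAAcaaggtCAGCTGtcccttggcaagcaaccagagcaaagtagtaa
Ctrb1, chr8:111691183-111691233, plus strand: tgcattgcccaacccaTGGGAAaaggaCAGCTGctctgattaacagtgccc
Clps, chr17:28561866-28561930, plus strand: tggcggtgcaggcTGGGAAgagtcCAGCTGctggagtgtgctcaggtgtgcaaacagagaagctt

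Wide footprints numbered 16846 of 316358 in library 1, which is 5.32% (5.25 to 5.40), and 22131 of 270843 in library 2, which is 8.17% (8.07 to 8.27). They held 14.9% of all footprint bases in library 1 and 21.7% in library 2. Their median width was 34 bp (quartiles 31 and 40) in library 1 and 35 bp (quartiles 32 and 42) in library 2, against 9 and 10 bp for narrow footprints. The longest spanned 85 and 87 bp. Most were 30 to 39 bp long, 12423 and 15011 of them. A further 4063 and 6415 were 40 to 49 bp long, and 360 and 705 reached 50 bp. Width chose these members, so these values are a description. Nothing in the counts marked the threshold itself: 2634 and 2582 footprints were 30 bp long, against 2849 and 2561 of 29 bp. Midpoints of 30 bp footprints lay in a footprint of the other library in 77.5% and 78.3%, and midpoints of 29 bp footprints in 75.6% and 76.5%.

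**Figure D1:**
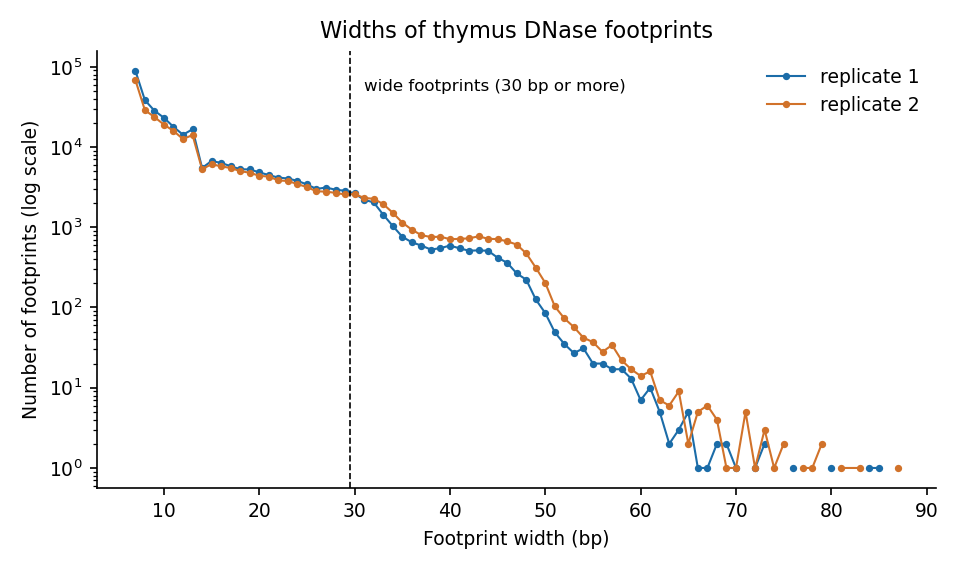
Number of footprints (log scale) at each width in bp, in the libraries labelled replicate 1 and replicate 2. The dashed line is the 30 bp threshold. The counts fell steeply to about 37 bp and ran nearly level to about 44 bp in replicate 1 and 46 bp in replicate 2. Beyond that they fell again.

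Wide footprints recurred between the libraries at most of their positions. The midpoint of a wide footprint lay inside a footprint of the other library in 80.9% of cases in library 1 (80.3 to 81.5) and 83.1% in library 2 (82.6 to 83.6). For narrow footprints this was 28.2% (28.1 to 28.4) and 29.4% (29.2 to 29.5), and for all footprints 31% and 33.8%. A wider footprint is an easier target, so midpoints were also compared directly. A midpoint of the other library lay within 5 bp of 69.9% and 68.4% of wide midpoints, against 24% and 27.5% of narrow ones and 26.5% and 30.9% of all. The share was higher in each width class up to 30 to 34 bp, and it was 69.3% and 74.8% in that class. In the 25% of host peaks with the highest signal in their library, the midpoint lay in a footprint of the other library for 85.6% and 88.2% of wide and 50.5% and 54.1% of narrow footprints.

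**Figure D2:**
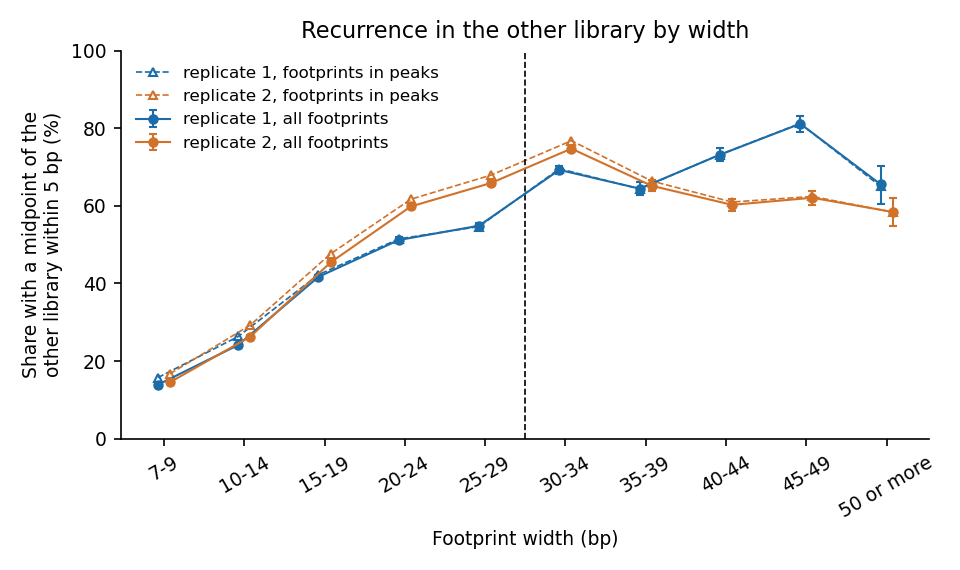
Share of footprints, in percent, with a midpoint of the other library within 5 bp, by width class in bp, with 95% Wilson intervals for all footprints and triangles for footprints in peaks. Shares rise to 69.3% and 74.8% at 30 to 34 bp. Above that they reach 81.2% at 45 to 49 bp in replicate 1 and lie near 60% in replicate 2.

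The libraries shared 10518 footprints that were wide in both, with a reciprocal overlap of at least 50%. These were 62.4% of the wide footprints of library 1 and 47.5% of those of library 2. Of the pairs, 1289 had the same start and end base in both libraries, and 70.8% differed by at most 3 bp in width. The widths had a Spearman correlation of 0.64 over the pairs, which share sequence and are not independent. Where a wide footprint of library 1 overlapped any footprint of library 2, the partner was narrow in 26.4%. For library 2 it was narrow in 47.5%. Of the 2537 wide footprints of library 1 with no overlap, 4.61% lay in a peak of library 2. Of the 2054 such footprints of library 2, 15.3% lay in a peak of library 1. Over all wide footprints, the midpoint lay in a peak of the other library for 13356 of 16846 in library 1 and 18377 of 22131 in library 2. For narrow footprints this was 108945 of 299512 and 116550 of 248712. The deposited false discovery rate (FDR) tables list intervals below 0.05. The midpoint was listed in the table of the other library for 87.3% and 94.1% of wide and 55.2% and 68.5% of narrow footprints.

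Wide footprints sat in stronger peaks than narrow ones by the median, but those with a CTCF core sat in weaker peaks than the other wide ones. Their midpoint lay in a peak of the shorter deposited list in 95.6% of cases in library 1 and 91.1% in library 2, against 71.3% and 65.3% of narrow footprints. The median signal of the host peak, in the authors' units within each library, was 3.67 in library 1 and 4.70 in library 2 for wide footprints, and 2.12 and 2.64 for narrow ones. By width class it was highest for the footprints of 50 bp or more, at 7.97 and 11.8. Wide footprints with a CTCF core (at most 1 mismatch, in 51 bp at the midpoint) had 2.46 and 2.60. The other wide footprints had 5.04 and 7.71, and narrow footprints with such a core 1.22 and 1.20. In library 2 the 2.60 is slightly below the 2.64 of all narrow footprints. The median width of the host peak was 200 bp for wide footprints in both libraries, against 240 and 220 bp for narrow ones. In these medians a peak counts once for each footprint it holds. Over all peaks, each counted once, the median width was also 200 bp in both libraries. A wide footprint was present in 17.4% of the peaks of library 1 and 28.4% of those of library 2. Of the 10% of peaks with the lowest signal, 0.193% and 1.55% held one. Most such peaks held a single wide footprint, 13003 of 14475 in library 1 and 14137 of 16909 in library 2.

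Wide footprints were no more frequent at promoters than narrow ones but were placed differently there. Midpoints lay within 1 kb of a GENCODE vM21 transcript start for 42.4% (41.6 to 43.1) of wide and 44.6% (44.4 to 44.7) of narrow footprints in library 1. In library 2 this was 45.9% (45.3 to 46.6) of wide and 50.7% (50.5 to 50.9) of narrow footprints. Footprints of 50 bp or more lay there in 75.6% and 70.9%. Between genes lay 27.6% and 26.1% of wide footprints, against 22.0% and 20.9% of narrow ones. Among footprints within 500 bp of a protein-coding start, the last 100 bp upstream of the start held 52.7% (51.4 to 54.0) of the wide and 29.4% (29.2 to 29.7) of the narrow ones in library 1. In library 2 it held 47.1% (46.0 to 48.2) of the wide and 28.4% (28.1 to 28.7) of the narrow ones. From 100 bp downstream up to the 500 bp limit lay 6.88% and 8.07% of the wide, against 19.5% and 20.2% of the narrow ones. The upstream placement was most marked at 50 bp or more, with 66.1% and 59.1% in the last 100 bp.

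**Figure D3:**
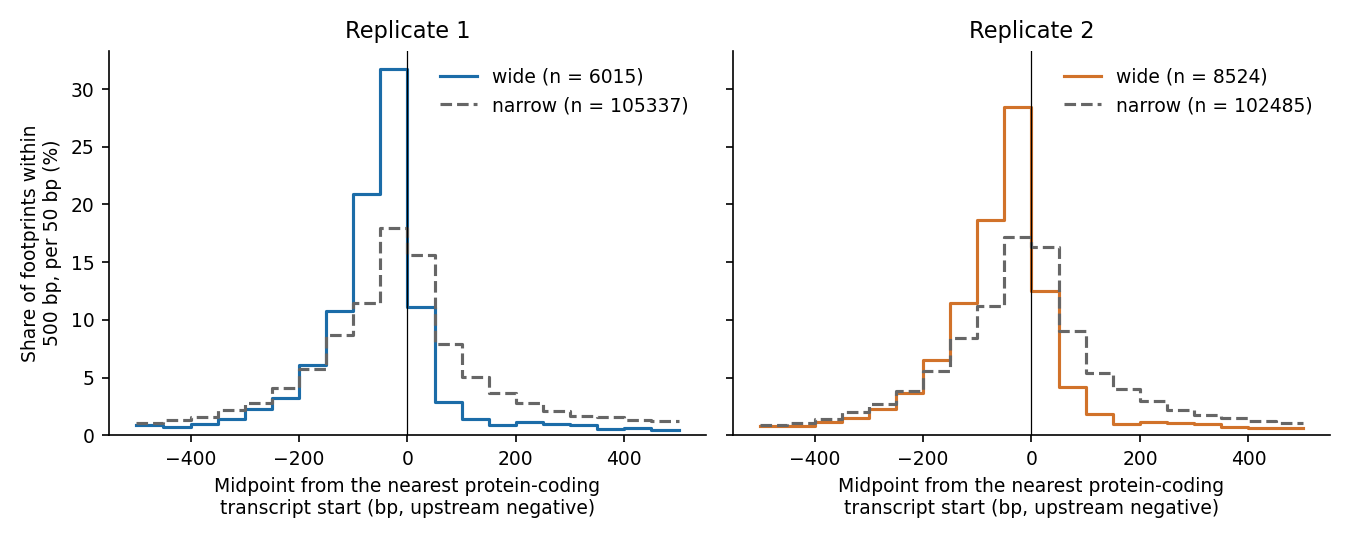
Distance of footprint midpoints from the nearest protein-coding transcript start in 50 bp steps, as a percentage of the footprints within 500 bp, for wide (coloured) and narrow (grey, dashed) footprints of replicate 1 and replicate 2. Wide footprints peak in the 50 bp before the start and are few beyond 100 bp downstream.

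The window of 51 bp centred on the midpoint has the same length for every footprint. Its GC content averaged 59.9% ± 10.6 for wide and 57.2% ± 11.7 for narrow footprints in library 1, and 60.5% ± 10.8 for wide and 59.1% ± 11.9 for narrow ones in library 2 (SD over footprints). Within promoters it was 66.0% and 65.8% at wide and 63.3% and 64.5% at narrow footprints, and outside them 55.5% and 56% at wide and 52.2% and 53.5% at narrow ones. The midpoint was repeat-masked in 11.4% and 14.2% of wide and 9.82% and 11.9% of narrow footprints. In the 40 to 49 bp class this was 17.0% and 19.7%.

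Of 32 transcription factor consensus sequences counted on both strands in these windows, 14 were more frequent at wide than at narrow footprints in both libraries and 11 less frequent. The 6 with the highest ratios were the TFIIIC B box, CTCF, CRE, ZNF143, E2F and SP/KLF. The B box was in 0.588% of wide and 0.0417% of narrow windows in library 1, and in 0.560% of wide and 0.0450% of narrow windows in library 2. All 99 wide footprints with a B box in library 1, and 99.2% of those in library 2, lay within 100 bp of an annotated tRNA gene. CTCF was in 13.7% of wide and 1.52% of narrow windows in library 1, and in 13.2% of wide and 1.40% of narrow windows in library 2. CRE had ratios of 4.48 and 3.27. ZNF143, a promoter zinc-finger protein, had ratios of 3.95 and 2.78. E2F (TTTGGCGC or TTTCGCGC), which acts on S-phase genes, had 3.11 and 2.39. The GC box GGGGCGGGG of SP and KLF factors had 2.98 and 2.22. Among footprints wide in both libraries, the B box was in 0.875%, CTCF in 16.6%, ZNF143 in 0.333% and the GC box in 6.29% of windows. CRE was in 1.09% and 1.08% of these windows, and E2F in 0.504% and 0.494%. Outside promoters the GC box had ratios of 1.52 and 0.77, so its direction turned in library 2. CRE had 2.16 and 1.36 there, ZNF143 2.44 and 1.20 from 4 and 2 wide windows, E2F 5.47 and 5.12, CTCF 8.78 and 8.55 and the B box 17.6 and 20.9. In the footprints of 50 bp or more the GC box was in 15.3% and 10.4% of windows, and the CCAAT box of NFY in 11.7% and 10.1%, against 2.47% and 2.31% of narrow windows.

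The 4 lowest ratios belonged to GATA factors (AGATAA or TGATAA), with 0.43 and 0.55, FOXA (TGTTTAC), with 0.44 and 0.60, PU.1 (GAGGAAGT), with 0.70 and 0.40, and IRF, with 0.64 and 0.51. The RUNX consensus TGTGGTT, of a T lineage factor, had 1.02 and 0.69. Reading each consensus backwards without complementing gave 8 sequences more frequent at wide footprints in both libraries, against the 14 above. Reversed CTCF had ratios of 2.54 and 2.25, and reversed CRE 2.25 and 2.47. Reversed E2F had 1.29 and 1.34, and the reversed B box 0.67 and 0.76. For ZNF143 no reversed ratio could be formed in library 1. Reversed YY1 had 2.44 and 1.72, above the 1.87 and 1.46 of YY1 itself. The GC box reads the same backwards, so that comparison says nothing of it. The 6 leading sequences, with CTCF at up to 1 mismatch, were in 45.2% and 44.7% of wide and 7.31% and 7.89% of narrow windows. The other wide windows held none of them.

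**Figure D4:**
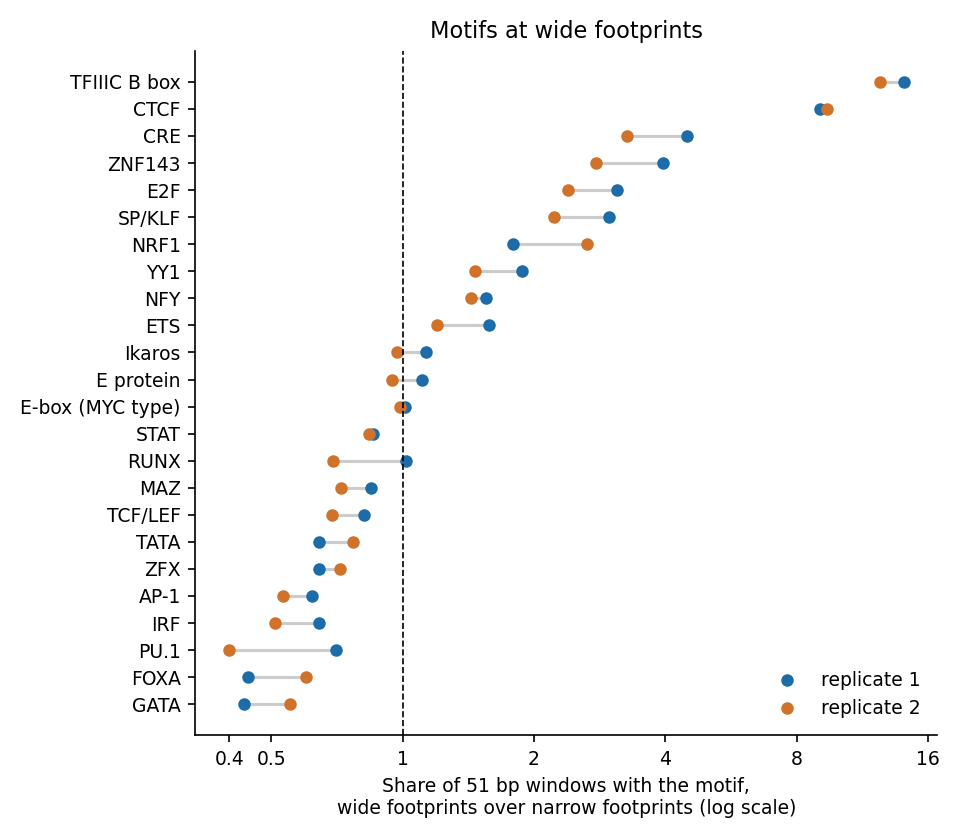
Share of 51 bp windows holding each consensus at wide footprints divided by the share at narrow footprints (log scale), for the 24 consensus sequences found in at least 30 wide windows of each library. Points are the 2 libraries. The B box and CTCF stand above 8 in both, and GATA, FOXA, PU.1 and IRF lie below 1 in both.

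Among the 32 consensus sequences, that of CTCF was in the largest share of wide windows. Matched exactly it was in 13.7% and 13.2% of them, and the E protein site in 12.8% and 9.06%. Binding of CTCF itself was not measured. A mismatch was allowed for CTCF only. With at most 1 mismatch its core was in 37.7% (37.0 to 38.5) and 37.8% (37.1 to 38.4) of wide windows, against 5.00% and 4.98% of narrow ones. Outside promoters this was 56.2% and 58.7% of wide windows, against 7.41% and 8.16% of narrow ones. The share had 2 maxima along the width axis. It was 43.9% and 40.4% at 30 to 34 bp, 19.6% and 25.1% at 35 to 39 bp, and 46.2% and 51.7% at 45 to 49 bp.

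The longer CTCF footprints differed from the shorter in where they ended. Around a whole core read 5′ to 3′, footprints of 30 to 34 bp reached a median of 6 bp upstream and 14 bp downstream in both libraries (1701 and 1734 sites). Footprints of 40 to 44 bp reached 22 and 21 bp upstream but only 9 bp downstream (253 and 375 sites). Those of 45 to 49 bp reached 22 and 23 bp upstream and 12 bp downstream (164 and 422 sites). The extra length lay on the side of the upstream motif seen in the Ptma and Ddx54 sequences. With the core whole and inside the footprint, and the sequence searched 50 bp to either side of the midpoint, TGCANTNCC lay upstream of the core in 10.7% (7.44 to 15.1) and 9.33% (6.79 to 12.7) of the 40 to 44 bp sites, in 8.54% and 8.06% of the 45 to 49 bp sites, and in 0.764% and 0.692% of the 30 to 34 bp sites. The search reached the place of the motif at the 8-base gap in each of these classes. Over all footprints of 30 bp or more with the motif upstream of a whole core, the gap was 8 bases at 51 of 62 sites in library 1. In library 2 it was 8 bases at 75 of 88 sites. Of the 40 to 49 bp sites of library 1 with a partner in library 2, the partner was also 40 to 49 bp in 86.1% of 389. Of those of library 2 it was in 45.6% of 734, and narrow in 31.3%.

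**Figure D5:**
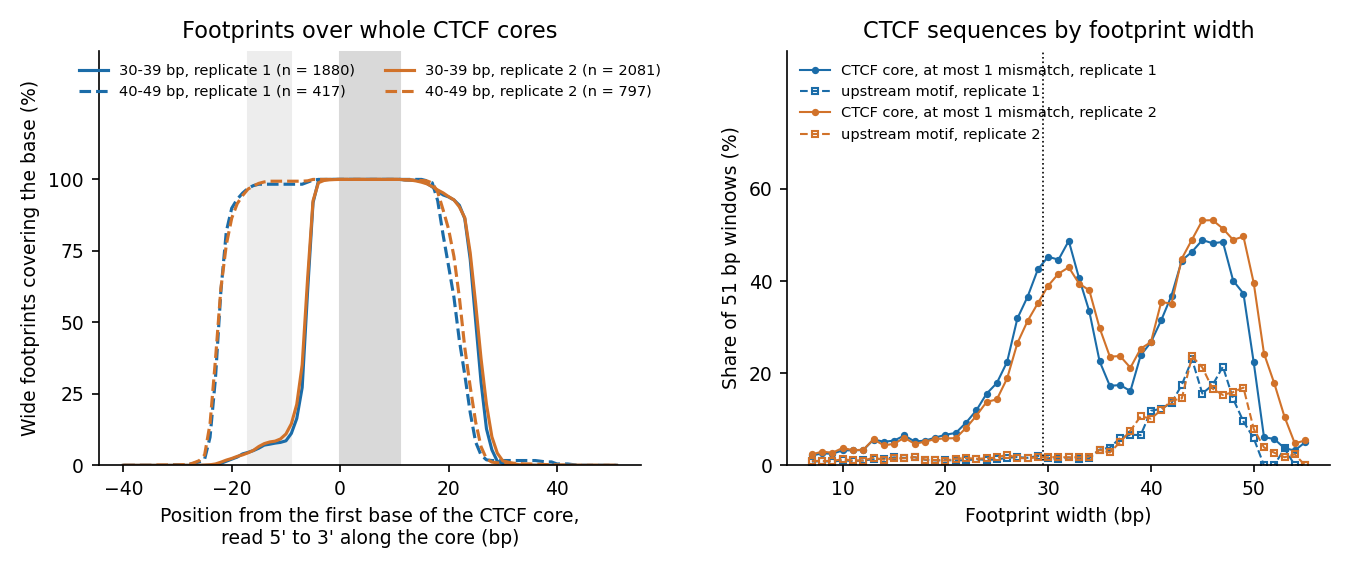
Left, share of wide footprints with a whole CTCF core that cover each base, by distance in bp from the first base of the core; dark grey is the core and light grey the place of the upstream motif at the 8-base gap. Right, share of 51 bp windows with the core (at most 1 mismatch) or the upstream motif at each footprint width. The 40 to 49 bp footprints extend over the light grey band, and the core's share has maxima near 32 and 45 bp.

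The upstream motif was also frequent where no core was matched. TGCANTNCC was in 15.8% and 16% of the windows of the 40 to 49 bp class, 2.41% and 2.87% of the 30 to 39 bp class, and 1.04% and 1.18% of narrow windows. In windows with no core at 1 mismatch or fewer it was in 10.4% and 9.79% of the 40 to 49 bp class, 1.61% and 1.84% of the 30 to 39 bp class, and 0.894% and 0.976% of narrow ones. A 51 bp window around a shorter CTCF footprint leaves out much of the place upstream of the core. With 50 bp searched to either side, the shares of all footprints were 16.5% and 16.7%, 3.69% and 3.97%, and 1.99% and 2.28% in the same order of classes. Where that longer stretch held no core, they were 11.1% and 10.5%, 2.62% and 2.87%, and 1.76% and 1.96%. This wider search was added after the first counts were seen. Among 8-letter sequences, those of the 40 to 49 bp class with the highest ratios to narrow windows were ATGCAGTA, at 31.9 and 27.9 times, and GTACTGCA, at 32.3 and 25.6 times. Both resemble the upstream motif or its reverse complement. Repeat-masked footprints of 40 to 49 bp numbered 690 and 1261, and 47.5% and 47.4% of their windows held TGCANTNCC. AGAGGGCAT, as in the Edrf1 and Lfng sequences, was in 24.1% and 23.7% of them, in 1.70% and 2.16% of all wide windows and in 0.248% and 0.290% of narrow ones. Of the wide windows with AGAGGGCAT, 93.4% and 94.8% were repeat-masked, and 92.7% and 94.0% held a CTCF core with at most 1 mismatch, which overlaps it. AGAGGGCAT was chosen after the 8-letter counts were seen. Reads of multi-copy sequence may be placed at the wrong copy.

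The longest shared wide footprint spanned 85 bp in library 1 and 87 bp in library 2. It lay 70 bp upstream of the nearest start of Nfat5, the osmotic stress transcription factor, in 80.4% GC sequence with no match to the 32 consensus sequences within 50 bp of its midpoint. Capitals mark the 85 bp held in both libraries, and the next sequence does the same for the 66 bp footprint upstream of Ccnj, a cyclin gene, with 2 CCAAT boxes read on the minus strand.
Nfat5, chr8:107293348-107293452, plus strand: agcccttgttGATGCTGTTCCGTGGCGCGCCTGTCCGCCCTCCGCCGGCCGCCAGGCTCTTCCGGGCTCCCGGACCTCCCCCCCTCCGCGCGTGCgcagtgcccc
Ccnj, chr19:40831176-40831261, plus strand: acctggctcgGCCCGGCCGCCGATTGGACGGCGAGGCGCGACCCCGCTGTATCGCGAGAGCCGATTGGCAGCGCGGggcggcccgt

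Of the 10 longest shared wide footprints, 5 lay at a single place of the genome by the copy search, all within 1 kb of a protein-coding start. They were those of Nfat5, Zfat (71 bp), Tmem218 (69 bp), Ccnj and Ppia (65 bp), the cyclophilin A gene. The other 5, at chr14:104715796-104715876, chr12:99645577-99645653, chr4:67208571-67208643, chr9:56223580-56223652 and chr17:70963695-70963760, had 15, 9, 25, 13 and 4 matching places. None of these 5 was nearest to a protein-coding start, and reads there may come from other copies.

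A wide footprint lay within 1 kb of a start in 5500 of 21951 protein-coding genes in library 1 (25.1%), 6556 in library 2 (29.9%) and 4306 in both (19.6%). Among 16 housekeeping genes 10 had one in library 1, 14 in library 2 and 9 in both. Among 12 cell cycle genes this was 6, 9 and 6. Ppia had 2 in each library, of up to 65 and 67 bp. Mcm5 and Mcm2, subunits of the replicative helicase, had 1 and 2 in library 1 and 4 and 3 in library 2. Of the tissue gene lists, these numbers had one in both libraries, with no test of their difference from all genes: 1 of 19 T cell receptor and coreceptor genes, 3 of 16 thymocyte development genes, 0 of 18 exocrine pancreas genes, 1 of 16 thymic epithelium genes, 1 of 14 B cell genes, 1 of 18 myeloid and dendritic genes, 1 of 12 neuron genes and 0 of 10 matched liver genes. T lineage transcription factors had 4 of 18. The shares of the thymocyte development and T lineage factor lists lay near that of all genes. The 4 were Satb1, a chromatin organiser of thymocytes, Tcf3, which encodes E2A, Ets1 and Id3. The T cell kinase gene Lck was the receptor gene with wide promoter footprints in both libraries, 2 in library 1 (up to 37 bp) and 4 in library 2 (up to 51 bp). Cd8a, Cd247, Lat and Ptpn22 had them in library 2 alone, of up to 42, 31, 36 and 31 bp. Ranked by the smaller of the 2 library counts and then by their sum, the genes with the most wide promoter footprints were Fntb, with 5 and 7, Nsun2, with 6 and 5, Rab11b, with 5 and 6, and Extl3, Fem1c and Hexim2, with 5 and 5 each. P3h1, with 4 and 7, came next by that rule, although its sum is above that of Extl3.

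In percentage points, wide footprints found in 1 library only differed most in E protein sites. E proteins are helix-loop-helix factors such as E2A, and CAGCTG or CACCTG is their site. It was in 834 of 3217 windows of library 1 whose midpoint lay in no footprint of library 2, which is 25.9% (24.4 to 27.5), and in 7.35% (6.56 to 8.23) of 3741 such windows of library 2. Among wide footprints held in both it was in 9.73% and 9.76%. TGGGAA, a sequence that Ikaros and RBPJ proteins bind, was in 14.8% and 3.96% of windows of 1 library only and in 4.11% and 4.10% of those held in both. The 2 sites often lay at a few set distances in library 1. Of 275 pairs in those windows, the E protein site followed TGGGAA after 6 bases in 36.7%, after 5 bases in 13.8% and after 15 bases in 12%. The same gaps led in narrow windows found in library 1 only, with 13.7%, 9.56% and 6.20% of 2322 pairs, so they are not particular to wide footprints.

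Such a pair is the known site of PTF1, the factor complex of pancreatic acinar cells that joins Ptf1a, an E protein and RBPJ or RBPJL. A gap of 5, 6 or 15 bases was present in 172 of 3217 wide windows found in library 1 only, which is 5.35% (4.62 to 6.18), and in 0.317% of the narrow windows found there only. It was in 0 of 3741 wide windows found in library 2 only, which allows a share of up to 0.0802%, and in 4 of 13629 wide windows of library 1 with a footprint of library 2 at the midpoint. The pair was looked for after the motif counts were seen. The gaps of 5, 6 and 15 bases are the most frequent ones in the same library 1 windows, so the share there is a description. Of 18 exocrine pancreas genes, 6 had a wide promoter footprint in library 1, against 25.1% of all protein-coding genes, and 1 in library 2, against 29.9%. Ctrb1, Cpa1, Pnlip, Ptf1a and Cuzd1 were among the 6, with footprints of 30 to 36 bp, and Cela1 had 2 in library 2.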

How the data were processed

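Footprints, peaks and FDR intervals of 2 DNase-seq libraries were used as the authors deposited them, placed on mm10 per the labels. The deposited footprint lists hold a score of 0.01 in every line, so footprints could not be ranked. The deposited peak lists give a signal per peak, in units whose scaling no label or header states. The authors' FDR tables give a p-value-like FDR per interval below 0.05. For the aligner and callers the labels and headers name nothing, and depth per library is unknown.

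Overlapping peaks of the shorter list were merged, from 85367 to 82982 and from 60644 to 59495, with the highest signal kept. Features were read at the footprint midpoint against GENCODE vM21, 403 RefSeq tRNA genes and GRCm38.p6 (soft-masked bases counted as repeats, with no repeat names). Consensus sequences were matched exactly on both strands in 51 bp windows, in which overlapping motifs each counted, and the scan was tested on simulated windows. Those of up to 9 letters beside the ones given in the results were YY1 AANATGGCG, NFY (CCAAT followed by CA, by CG, by GA or by GG), ETS CCGGAAGT, MAZ GGGAGGG, EGR GCGTGGGCG, AP-1 (TGACTCA or TGAGTCA), MYC-type E-box CACGTG, ZFX AGGCCT, TCF/LEF ATCAAAG, STAT TTCNNNGAA, HNF4 CAAAGTCCA, NR5A2 TCAAGGTCA and the TATA box, TATAAA. NRF1, REST, RFX, BANP, NFI and HNF1 were searched by longer sequences. Genome copies of 34 printed or named sites were searched with blastn 2.17.0.

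The members, lists and motifs were chosen with earlier results of these data known. Named items were the 10 longest shared footprints, the 5 genes with the most wide promoter footprints and ties, up to 4 genes a list with one in both libraries, and the 6 highest and 4 lowest motif ratios among motifs in at least 30 wide windows of each library. Genes named as having one in a single library, or for narrow or absent footprints, were chosen after their values were seen. The result of 1 listed gene is not reported here. Alternatives were other width thresholds, windows, peak lists and overlap rules. Python 3.11.15 with pandas 2.3.3 and scipy 1.17.1 was used.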

Additional observations from a re-analysis of the deposited data

How the results depend on the processing

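The value with each library left out is that of the other library alone. The share of footprints that are wide, 6.75% on average, ran from 5.32 to 8.17%. It was 11.8% with wide meaning 25 bp or more, 2.01% with 40 bp and 9.03% within peaks. The excess of wide over narrow footprints with the midpoint in a footprint of the other library, 53.2 points, ran from 52.7 to 53.7 points. It was 49.1 points at 25 bp, 55.8 at 40 bp, 49.5 within peaks, 54.3 with any overlap, 43.4 with midpoints within 5 bp and 34.6 in the 25% of host peaks with the highest signal. The promoter difference, -3.50 points, was -1.65 points with a 500 bp window and -13.4 in those strongest peaks. The excess in peaks, 25 points, was 12.8 with the longer peak list. The log2 ratio of median host signal, 0.81, was 0.73 at 25 bp, 0.90 at 40 bp and 1.14 with the longer list. The GC excess, 2.10 points, was 3.89 in 31 bp windows and 0.42 in windows reaching 50 bp to either side. The count of consensus sequences more frequent at wide footprints, 14, was 8 outside promoters and 8 for reversed sequences. The log2 ratio of ZNF143, 1.73, was -0.032 at 40 bp, and that of SP/KLF, 1.36, was 0.12 outside promoters, with opposite signs in the libraries. The share of protein-coding genes with a wide promoter footprint, 27.5%, was 39.5% at 25 bp, 10.3% at 40 bp and 31.2% within 2500 bp. The other 42 values of the general results stayed within the spread between libraries or, for counts, within 1.5 times. They include the values with 1 library left out. With 2 libraries these lie within that spread by construction, except for the counts, so they say nothing of stability. The causes were not tested. No paired analysis across groups was possible because the 2 libraries form 1 group; each wide minus narrow difference is already taken within a library. The strongest-peak, midpoint-distance, outside-promoter GC and 1-mismatch CTCF alternatives were chosen after seeing the data.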
